A study of Homo sapiens with 32 samples.

Results

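A group of 33 gene labels, read by 39 of the 9912 cDNA probes on the array, is described here in ZR-75-1 xenografts treated with tamoxifen. They belong to the 60 probes of set 5, the late and continuously repressed cluster among the 333 probes that the study listed as tamoxifen-responsive. The 21 probes of the best-known estrogen-response genes and of a few other named genes of that set were set aside. What remains is a mixed collection of enzymes, transporters, membrane and cytoskeletal proteins, adhesion and secreted proteins, nuclear proteins, and hemoglobin. One label, HBZ,HBA1,HBA2,HBQ1, names 4 hemoglobin genes together and has 4 probes. RBBP8, SIAH2 and SLC39A6 have 2 probes each, and for these labels the brightest of the probes described here stands for the gene. Probes that the study placed in other sets did not enter this choice. Among those, a SIAH2 probe of set 4 and a DHCR7 probe of set 3 were brighter than the probe used.

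ZR-75-1 is an estrogen receptor-positive line of human breast cancer cells. Its tumors were maintained as subcutaneous fragments in both flanks of female nu/nu mice, which lack T cells and still have their own stroma and vessels. All animals received slow-release E2 (17β-estradiol). A tamoxifen pellet of 2.5 mg, made to last 60 days, was given to the treated animals as well, and 16 of their tumors from 12 mice were analyzed here. There were 4 tumors from 2 mice at day 1, 2 from 2 mice at day 2, 4 from 3 mice each at days 4 and 7, and 2 from 2 mice at day 14, and the tumors of day 4 are numbered replicates 1, 2, 3 and 5. The control was 1 RNA pool of xenografts given E2 only, which were taken between day 0 and day 4. No control of day 7 or 14 was in the pool, so the time a tumor spent in the mouse and the tamoxifen it received cannot be told apart at those days. Mouse ages are not given in the sources used here.

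Estradiol binds the estrogen receptor, which then acts on genes either at estrogen response elements in the DNA or through other DNA-bound factors. Tamoxifen competes for the same receptor and in breast epithelium mostly acts as an antagonist. Genes that the receptor activates include growth factors and secreted proteins, but also transporters, ubiquitin ligases and enzymes that make or modify steroids, and several of those are among the genes described here. Since the arrays measured bulk tumor RNA, fewer cells of a type and less RNA per cell cannot be told apart.

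Every value below is a log2 ratio of the treated tumor over the control pool, averaged over both dye orientations, and is negative where the tumor had the lower signal. This sign is the likely direction. Which dye each channel holds is not named in the scanner files, and the sample labels place the tumor in the first channel on forward arrays, which would turn every sign. The direction used here is the one in which the signs of the authors' value table run and in which the study calls set 5 repressed. One dye-swap array, labelled day 4 replicate 4 in its title but with the RNA source of replicate 3, was left out, because its uncorrected log ratios ran with those of another tumor, day 4 replicate 2 in the forward orientation (r = 0.980 over the probes, against 0.863 for the next closest pair of arrays from different tumors). Day 4 replicate 3 therefore has 1 orientation only, the forward one. Its values thus keep any difference between the orientations. Over the other 15 tumors, forward minus swapped ratios averaged from -0.61 for the hemoglobin label to 0.61 for MAT1A. Signal over background had a median of 2.74 to 8.23 by array, and the median over all 9912 probes lay between -0.016 and 0.0097 in every tumor.

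The study chose its probes on these same arrays, by a 1.5-fold change and a p not above 0.05 over the 5 days, without stating whether that p was adjusted, and then clustered them by their course over time. The log2 ratios given below are therefore a description of the genes and carry no test. As processed here, the lowest day mean of CPSF5 was -0.59 ± 0.085 and that of CYB5 was -0.59 ± 0.10, both at day 14 and just past the 1.5-fold limit. CD59 at -0.54 ± 0.024 and CHD1 at -0.57 ± 0.033 lay just short of it, at 1.45-fold and 1.48-fold lower than the pool. At the other end, the lowest day means were 3.79-fold lower than the pool for CLN8, 3.22-fold for CYP1B1 and 2.72-fold for HSD17B1.

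As a group, the genes were modestly lower from day 1 to day 7 and lower still at day 14. The median over the 33 labels was -0.32, -0.42, -0.33 and -0.31 on the first 4 days of sampling in turn, and -0.77 at day 14. The other 21 probes of set 5 had lower medians on every day, from -0.71 at day 7 to -1.60 at day 14. The median SD between tumors of a day was 0.17 to 0.24 on the log2 scale. In all, 22, 31, 24 and 23 of the 33 labels were below 0 in every measured tumor of days 1, 2, 4 and 7, beside 16.7%, 27.5%, 9.35% and 11.6% of all probes. At day 14 all 33 were, beside 34.4% of all probes. At day 14 each of the 33 was also below 0 on all 4 single arrays, in both orientations. The share of all probes below 0 on all 4 is not given here. Since the study chose and clustered its probes on these arrays, nothing is read from this count.

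**Figure D1:**
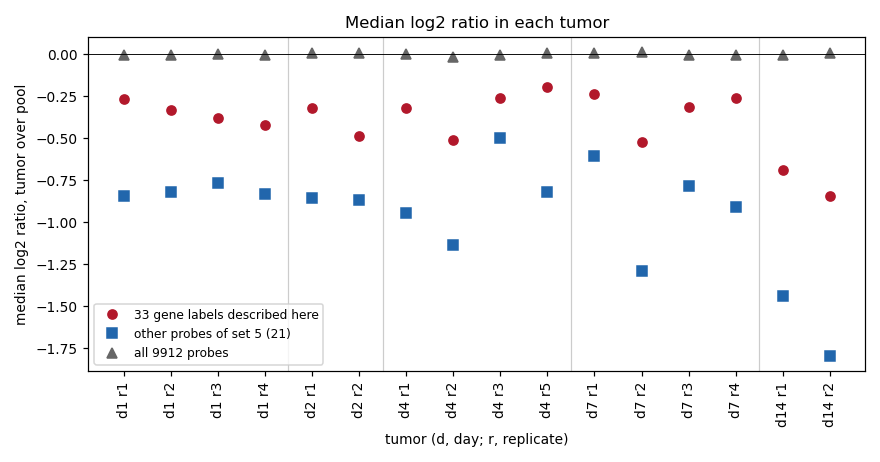
Median log2 ratio of tumor over pool (vertical axis) in each of the 16 tumors (horizontal axis, d for day and r for replicate). Circles show the 33 gene labels described here, squares the other 21 probes of set 5 and triangles all 9912 probes. The circles lie between -0.20 and -0.53 through day 7 and at -0.69 and -0.84 in the day 14 tumors.

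When limma was run over all 9912 probes, 11, 3, 7, 6 and 31 of the 39 probes were lower at an adjusted p under 0.05 on the 5 days in turn, and none was higher. Over all probes, 3.59%, 0.636%, 0.696%, 0.494% and 2.96% were called lower on the same days. Since the probes were chosen on these values, nothing is read from the difference between these shares. The counts also rest on few tumors. Without replicate 1, the day 1 count was 3. It was 0 without day 2 replicate 1, 2 without day 4 replicate 2, 1 without day 7 replicate 2 and 3 without day 14 replicate 2. The calls over all probes fell with them, to 0.827%, 0.0605%, 0.131%, 0.121% and 0.151%. With the tumors of a mouse averaged, 0, 2, 3, 2 and 34 of the 39 probes were called, beside 0.202%, 0.595%, 0.222%, 0.131% and 3.16% of all probes. By a 1.5-fold change and an unadjusted p not above 0.05 in the fit used here, 8, 12, 8, 3 and 36 of the 39 probes were lower on the 5 days, beside 0.747%, 1.61%, 0.535%, 0.383% and 2.51% of all probes.

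Over the course, PHLDA2 and SLC1A1 were called lower on 4 of the 5 days, and ADD3, CLN8, SLC16A1, STOM and ZNF238 on 3. A further 8 labels were called on 2 days and 16 on 1 day. CHD1 and SIAH2 were called on none, with day 14 means of -0.57 ± 0.033 and -0.70 ± 0.26. The share of all probes called on as many days is not given here, and nothing is read from these numbers of days. Day 14 held the lowest day mean of 28 of the 33 labels, day 2 that of ADD3, LAMA3 and STOM, and day 4 that of SLC1A1 and the hemoglobin label. Of all probes, 25.8% had their lowest day mean at day 14. For 11 labels both day 14 tumors were lower than every earlier tumor, a pattern seen in 2.34% of all probes. These were CYP1B1, HSD17B1, CYB5, CA8, ME1, SLC39A6, MAPT, CD59, IL24, PHLDA2 and RBBP8. The second probes of RBBP8 and SLC39A6 did not show it, with earlier tumors as low as -0.64 and -1.02 against -0.62 and -0.58 in the higher day 14 tumor. For SLC39A6 these means include dim spots, with a brighter channel of 214 and 354 on the swapped arrays of day 14. The forward array of day 2 replicate 1, the tumor at -1.02, was at 460. On the forward arrays of day 14, where the spot was bright, the ratio was -0.96 in both tumors. An SLC39A6 probe that the study placed in set 4 did show it, with -0.95 in the higher day 14 tumor against -0.80. So did a DHCR7 probe of set 3 (-0.56 against -0.38), unlike the DHCR7 probe described here. A different and partly overlapping 11 labels were below 0 in every measured tumor, as were 1.75% of all probes. They were ADD3, CLN8, CPSF5, CYB5, CYP1B1, DHCR7, ME1, PHLDA2, SLC16A1, SLC1A1 and ZNF238. The brighter DHCR7 probe of set 3 was above 0 in single tumors of days 1, 4 and 7, up to 0.37 in day 4 replicate 2.

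**Figure D2:**
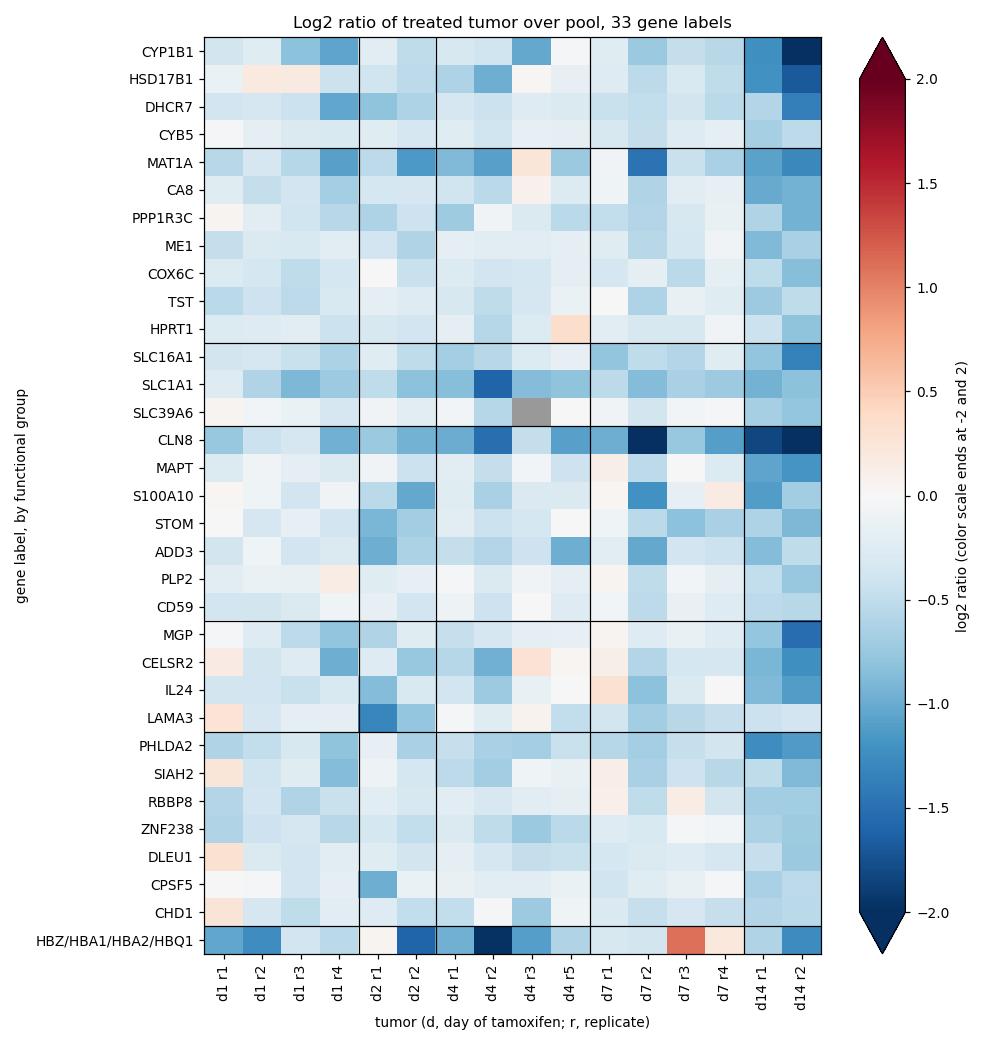
Log2 ratio of tumor over pool for the 33 gene labels (rows, in functional groups separated by lines and ordered within each by their day 14 mean) in the 16 tumors (columns). Blue is lower and red higher than the pool, grey is a spot not measured, and colors end at -2 and 2. The day 14 columns are blue in all rows, and the hemoglobin row alone is strongly red in day 7 replicate 3.

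Tumors of the same day differed. Day 7 replicate 2 was the lowest of its day for 26 of the 33 labels, with a median of -0.53 against -0.24 to -0.31 in the other tumors of day 7, and 25.9% of all probes had their lowest day 7 value in it. Day 4 replicate 2 was the lowest of its day for 21 labels, with a median of -0.51 against -0.20 to -0.32, and 29.1% of all probes had their lowest day 4 value in it. Its sister tumor from the same mouse, replicate 1, was at -0.32. At day 14 replicate 2 was the lower tumor for 22 labels, with a median of -0.84 against -0.69, as it was for 49.3% of all probes. The lowest of all 16 tumors was one of day 14 for 22 labels and day 7 replicate 2 for 4.

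Among the steroid, sterol and redox enzymes, CYP1B1 and HSD17B1 stood lowest at day 14. CYP1B1 is a cytochrome P450 that hydroxylates estradiol. Its log2 ratios were -0.37, -0.24, -0.82 and -1.06 in the tumors of day 1, -0.23 and -0.51 at day 2 and -0.32, -0.39, -1.02 and -0.047 at day 4. They were -0.25, -0.74, -0.47 and -0.56 at day 7 and -1.23 and -2.14 at day 14. All 16 tumors were below 0, and the day 14 mean of -1.69 ± 0.64 (SD, n = 2) was 3.22-fold lower than the pool, with the widest gap between its tumors of any label on that day. HSD17B1, the enzyme that turns estrone into estradiol, was not lower at day 1, where the tumors were at -0.14, 0.20, 0.18 and -0.42. It was at -0.40 and -0.53 at day 2, -0.62, -0.98, 0.028 and -0.17 at day 4, -0.25, -0.53, -0.30 and -0.51 at day 7 and -1.21 and -1.67 at day 14. Both day 14 values lay below all 14 earlier ones. The day 4 value of 0.028 is from the tumor with the forward array only, and HSD17B1 averaged 0.39 higher on forward than on swapped arrays.

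DHCR7, which carries out a last step of cholesterol synthesis, had day means of -0.54 ± 0.33, -0.71 ± 0.13, -0.33 ± 0.072, -0.46 ± 0.075 and -0.98 ± 0.56. It was below 0 in every tumor, and its day 14 tumors were far apart, at -0.59 and -1.37. A brighter DHCR7 probe that the study placed in set 3 was near the pool through day 7, with day means from -0.27 to 0.020, and at -0.64 ± 0.12 at day 14. CYB5 is cytochrome b5, an electron donor to P450 enzymes and lipid desaturases, and it moved within a narrow range. Its day means were -0.20 ± 0.13, -0.29 ± 0.070, -0.25 ± 0.10, -0.31 ± 0.12 and -0.59 ± 0.10.

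The metabolic and mitochondrial enzymes were led by MAT1A, which makes the methyl donor S-adenosylmethionine and is best known from liver. Its log2 ratios were -0.56, -0.33, -0.58 and -1.09 at day 1, -0.52 and -1.15 at day 2 and -0.88, -1.09, 0.24 and -0.74 at day 4. They were -0.074, -1.48, -0.45 and -0.65 at day 7 and -1.07 and -1.28 at day 14. MAT1A was thus as low in single tumors of days 1, 2, 4 and 7 as in those of day 14, and above 0 only in day 4 replicate 3. That tumor has the forward array only. Over the other 15 tumors MAT1A was on average 0.61 higher on forward than on swapped arrays, so this sign is uncertain. CA8, a member of the carbonic anhydrase family without the catalytic activity, followed another course. It was at -0.25, -0.47, -0.38 and -0.67 at day 1, -0.35 and -0.33 at day 2, -0.40, -0.54, 0.080 and -0.27 at day 4 and -0.082, -0.60, -0.22 and -0.16 at day 7. The day 14 tumors, at -1.01 and -0.95, were the lowest of all 16 and close to each other.

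The other 5 enzymes of this group had day 14 means between -0.61 and -0.77. ME1, the cytosolic malic enzyme that supplies NADPH, was at -0.32 ± 0.11, -0.50 ± 0.16, -0.19 ± 0.019, -0.31 ± 0.20 and -0.77 ± 0.17, below 0 in all tumors. PPP1R3C, a subunit that targets protein phosphatase to glycogen, had a day 14 mean of -0.77 ± 0.25 after earlier means of -0.28 to -0.52. Its spots were dim, under 3 times the local background on 5 of 31 arrays, and a set 4 probe of much the same brightness was at -0.83 ± 0.11 at day 14. COX6C, a nuclear-encoded subunit of cytochrome c oxidase, was at -0.68 ± 0.23 at day 14 and between -0.37 and -0.22 before. TST, the mitochondrial sulfur transferase rhodanese, was at -0.62 ± 0.14, and its day 1 mean of -0.45 ± 0.11 was the lowest before that. HPRT1, the purine salvage enzyme often used as a reference gene, was at -0.61 ± 0.26 at day 14 and between -0.17 and -0.36 on the earlier days, with one tumor above 0 (day 4 replicate 5, 0.35).

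**Figure D3:**
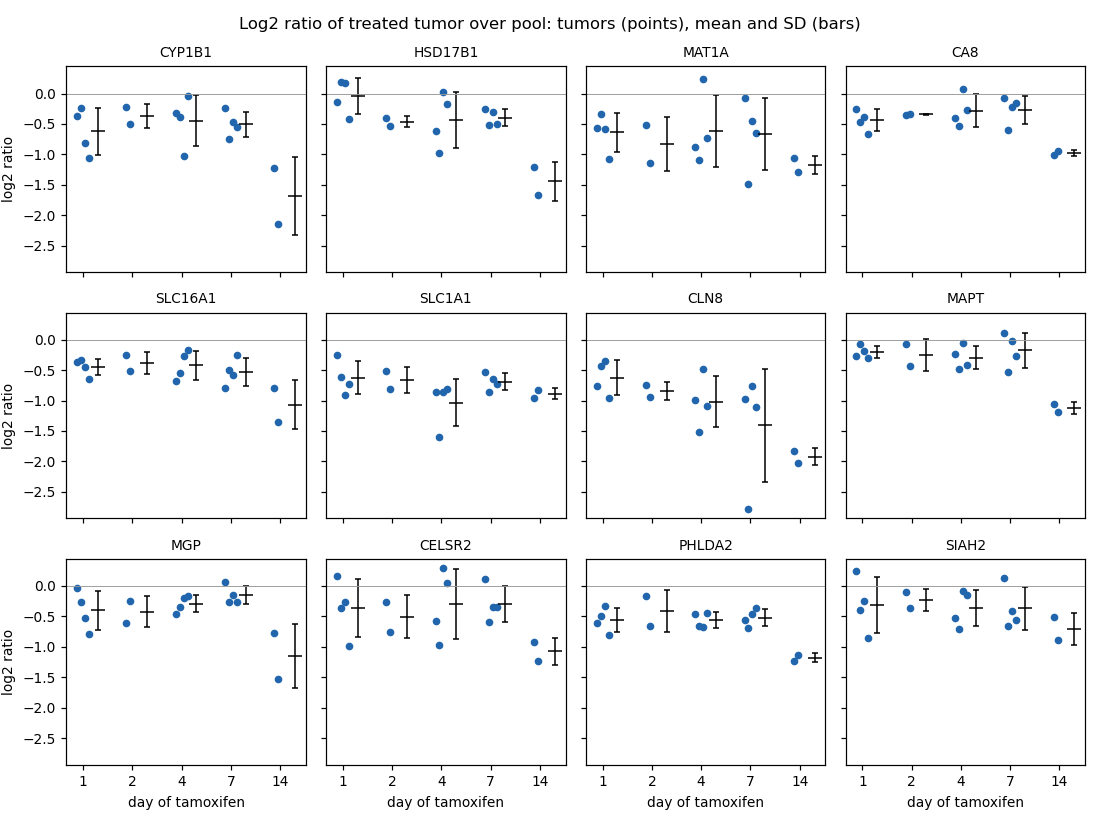
Log2 ratio of tumor over pool (vertical axis) by day of tamoxifen (horizontal axis) for the 2 genes of each functional group with the lowest day 14 means. Points are tumors, and the bar with whiskers is the mean with its SD (n = 2 to 4). For MAPT, PHLDA2, CYP1B1, HSD17B1 and CA8 both day 14 points lie below all earlier points, while SLC1A1 and MAT1A were as low or lower in single earlier tumors.

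All 3 transporters were lower than the pool, each with a different course. SLC16A1, the monocarboxylate transporter that carries lactate and pyruvate, was at -0.37, -0.33, -0.45 and -0.64 at day 1, -0.25 and -0.51 at day 2 and -0.68, -0.55, -0.27 and -0.17 at day 4. It was at -0.79, -0.50, -0.58 and -0.25 at day 7 and -0.79 and -1.35 at day 14. Every tumor was below 0, and day 7 replicate 1 was level with the higher of the day 14 tumors. SLC1A1, a high-affinity glutamate transporter, was at -0.26, -0.61, -0.90 and -0.73 at day 1, -0.51 and -0.82 at day 2 and -0.86, -1.61, -0.86 and -0.80 at day 4. It was at -0.53, -0.86, -0.65 and -0.72 at day 7 and -0.95 and -0.82 at day 14. It was thus low from day 1 on, lowest in day 4 replicate 2, while day 14 replicate 1 was lower than the other 13 earlier tumors and replicate 2 lay among them.

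SLC39A6, a zinc transporter long known as estrogen-induced, was lowest at day 14 on its brightest probe, and its level before that day differed between probes. The brightest probe had day means of -0.12 ± 0.16, -0.14 ± 0.10, -0.21 ± 0.32 (n = 3), -0.13 ± 0.15 and -0.72 ± 0.073. That probe was close to the top of the scanner's range, with its brighter channel over 50000 on 18 of the 25 arrays that measured it. A log ratio between channels that are both near the top is compressed toward 0. The second probe gave -0.58 and -0.68 at day 14 and -1.02 and -0.30 at day 2, and the probes correlated with r = 0.499 over 15 tumors. Its brighter channel was over 50000 on 12 of 31 arrays and under 1000 on 9 others, and why it fell into bright and dim arrays was not tested. Without the spots over 50000, the day 14 mean of the brightest probe was -0.69. A further SLC39A6 probe, which the study placed in set 4 and whose channels never exceeded 50000, had day means of -0.29 ± 0.36, -0.41 ± 0.0078, -0.28 ± 0.34, -0.25 ± 0.084 and -0.95 ± 0.00079, and correlated with the brightest probe with r = 0.791 over 15 tumors. It was further below 0 than the brightest probe on each of the 5 days, most so at day 2.

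**Figure D4:**
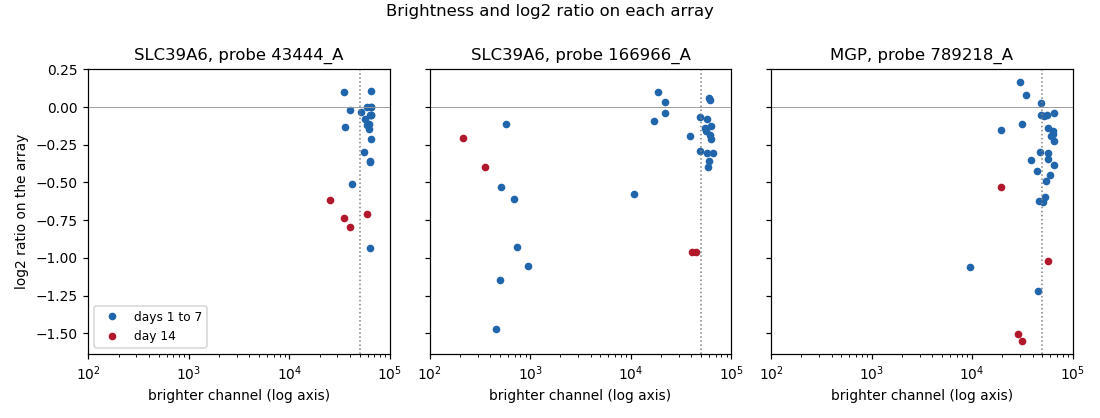
Log2 ratio on each array (vertical axis) against the intensity of the brighter channel (horizontal axis, logarithmic) for both SLC39A6 probes and the MGP probe. Each point is an array, red for day 14, and the dotted line marks 50000. The left probe is over 50000 on 18 of 25 arrays, the middle probe falls into a bright and a dim cluster, and MGP is over 50000 on 16 of 31.

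In the membrane, cytoskeleton and trafficking group CLN8 was the lowest of all labels at day 14. CLN8 is a membrane protein of the endoplasmic reticulum that takes part in the export of lysosomal enzymes. Its log2 ratios were -0.76, -0.43, -0.34 and -0.97 at day 1, -0.74 and -0.94 at day 2 and -0.98, -1.51, -0.48 and -1.09 at day 4. They were -0.98, -2.79, -0.76 and -1.10 at day 7 and -1.82 and -2.02 at day 14. The day means ran from -0.62 over -0.84, -1.02 and -1.41 to -1.92, each lower than the one before, although at day 7 only replicate 2 was lower than -1.10. MAPT, the microtubule-associated protein tau, was close to the pool through day 7, at -0.27, -0.069, -0.18 and -0.30 at day 1, -0.065 and -0.43 at day 2, -0.23, -0.48, -0.055 and -0.41 at day 4 and 0.11, -0.53, -0.015 and -0.27 at day 7. At day 14 it was at -1.06 and -1.19, while the lowest of the earlier tumors was at -0.53 (day 7 replicate 2).

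S100A10, the partner of annexin A2 at the plasma membrane, had day means of -0.13 ± 0.18, -0.78 ± 0.35, -0.37 ± 0.19, -0.29 ± 0.63 and -0.91 ± 0.30. STOM, a membrane protein of lipid rafts, and ADD3, an adducin of the spectrin skeleton, were lowest at day 2, at -0.81 ± 0.16 and -0.80 ± 0.25. At day 14 they were at -0.76 ± 0.20 and -0.69 ± 0.25. PLP2, a small membrane protein, and CD59, the surface inhibitor of complement lysis, had the smallest changes of the group, at -0.62 ± 0.19 and -0.54 ± 0.024 at day 14. On the earlier days their means lay between -0.092 and -0.20 for PLP2 and between -0.19 and -0.28 for CD59.

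The adhesion, matrix and secreted genes included MGP, a secreted inhibitor of calcification. Its log2 ratios were -0.040, -0.26, -0.53 and -0.78 at day 1, -0.61 and -0.24 at day 2, -0.47, -0.34, -0.19 and -0.16 at day 4, 0.058, -0.26, -0.15 and -0.26 at day 7 and -0.78 and -1.53 at day 14. The day 14 replicate 1 value was no lower than day 1 replicate 4. MGP is another probe near the top of the scanner's range, over 50000 in its brighter channel on 16 of 31 arrays, and without such spots its day 14 mean was -1.03 against -1.15. CELSR2, an atypical cadherin, varied widely between tumors of a day. It was at 0.17, -0.37, -0.27 and -0.98 at day 1, -0.26 and -0.76 at day 2, -0.57, -0.96, 0.29 and 0.046 at day 4, 0.12, -0.59, -0.35 and -0.34 at day 7 and -0.92 and -1.23 at day 14. At days 1, 4 and 7 its tumors lay on both sides of 0.

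IL24, a secreted cytokine of the IL-10 family, was at -0.38 ± 0.058, -0.58 ± 0.40, -0.32 ± 0.32, -0.20 ± 0.48 and -1.0 ± 0.16 on the 5 days. LAMA3, a laminin chain of epithelial basement membranes, followed its own course. Its tumors were at -1.30 and -0.77 at day 2 and at -0.43 and -0.38 at day 14, with day means of -0.11 ± 0.27, -0.17 ± 0.25 and -0.52 ± 0.14 at days 1, 4 and 7.

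The nuclear, RNA, ubiquitin and growth control genes were led by PHLDA2, an imprinted gene that restrains placental growth. Its log2 ratios were -0.60, -0.50, -0.33 and -0.81 at day 1, -0.17 and -0.65 at day 2 and -0.46, -0.65, -0.68 and -0.44 at day 4. They were -0.57, -0.68, -0.46 and -0.37 at day 7 and -1.24 and -1.13 at day 14. All were below 0, the means of days 1 to 7 stayed between -0.56 and -0.41, and both day 14 tumors lay below the rest. SIAH2, a ubiquitin ligase and a known estrogen-induced gene, was at 0.25, -0.40, -0.24 and -0.86 at day 1, -0.10 and -0.36 at day 2 and -0.52, -0.70, -0.083 and -0.15 at day 4. It was at 0.14, -0.65, -0.41 and -0.55 at day 7 and -0.51 and -0.89 at day 14. The day 14 replicate 1 value lay within the range of the earlier tumors, and replicate 2 was the lowest of all 16. Its second probe correlated with it with r = 0.903 over 16 tumors, and a probe that the study placed in set 4 with r = 0.966, with a day 14 mean of -0.86 ± 0.39.

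RBBP8, a DNA end resection factor also called CtIP, was at -0.50 ± 0.11 at day 1 and -0.69 ± 0.0042 at day 14, and its second probe was at -0.62 and -0.78 in the day 14 tumors. ZNF238 (now ZBTB18), a transcriptional repressor, had means of -0.48 ± 0.12, -0.42 ± 0.098 and -0.52 ± 0.19 before day 7, -0.16 ± 0.14 at day 7 and -0.67 ± 0.057 at day 14. CPSF5 (now NUDT21), a cleavage factor that selects polyadenylation sites, was at -0.98 and -0.13 in the day 2 tumors and -0.59 ± 0.085 at day 14. DLEU1, a long noncoding RNA, and CHD1, a chromatin remodeler, were at -0.60 ± 0.20 and -0.57 ± 0.033 at day 14. Both were above 0 in day 1 replicate 1.

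The hemoglobin label stood apart from the other genes. The label names the embryonic, adult and theta genes of the alpha globin family, which are alike in sequence, so its 4 probes cannot be assigned to one gene. For the brightest of them the log2 ratios were -1.04, -1.24, -0.38 and -0.53 at day 1, 0.062 and -1.60 at day 2 and -0.96, -1.98, -1.10 and -0.60 at day 4. They were -0.33, -0.37, 1.10 and 0.20 at day 7 and -0.60 and -1.26 at day 14. The label was higher than the pool in day 7 replicates 3 and 4, which came from the same mouse, and lowest in day 4 replicate 2, whose sister tumor from the same mouse was at -0.96. Over 16 tumors the 4 probes correlated with each other with r = 0.975 to 0.993, and with the probe of the gamma globin gene HBG1 with r = 0.929 to 0.964. The value of HBG1 was 1.21 in day 7 replicate 3 and -2.18 in day 4 replicate 2. No other erythroid marker of the list drawn up for this tissue had a named probe, so red cell content was not tested.

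**Figure D5:**
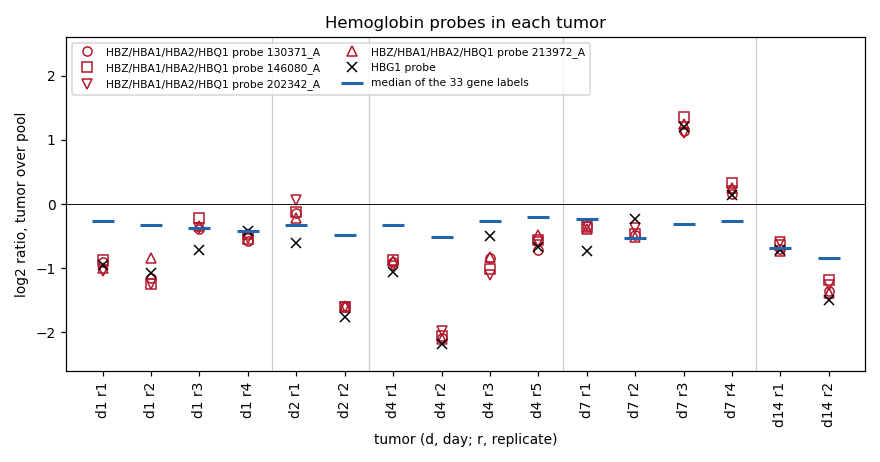
Log2 ratio of tumor over pool (vertical axis) in the 16 tumors (horizontal axis) for the 4 probes of the hemoglobin label (red), the HBG1 probe (crosses) and the median of the 33 labels (blue bars). The hemoglobin probes move together, from about -2 in day 4 replicate 2 to over 1 in day 7 replicate 3, while the median stays below 0.

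The courses of the labels were compared by the correlation of each with the median of the other 32 over the tumors. The values ranged from r = 0.087 to 0.936 with a median of 0.678. They describe how alike the courses are, since every tumor was measured against the same pool and the day 14 tumors weigh heavily. SLC39A6 (r = 0.936), MAPT (0.872) and CA8 (0.860) followed the median most closely, but the SLC39A6 value is that of the probe near saturation, and its other probes gave 0.557 (set 5) and 0.780 (set 4). LAMA3 (0.087), ADD3 (0.211) and the hemoglobin label (0.302) were least like it. Agreement between both dye orientations was r = 0.647 at the median label, from 0.019 for DLEU1 (15 tumors) to 0.958 for DHCR7 (14 tumors). At most 15 tumors entered, and 10 for SLC39A6. A correlation leaves out a constant difference between orientations, which averaged -0.49 for STOM and 0.53 for CLN8. Both orientations were below 0 in 8 of 15 tumors for PLP2 and S100A10 and in all 15 for CA8.

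Other named genes of the same pathways could be seen only where the study's list names a probe, and that list was chosen for change. Besides ME1 and DHCR7, the sterol and fatty acid list held EBP, SCD and ELOVL5, all 3 called lower at day 14. SCD, the stearoyl-CoA desaturase, was at 0.62 ± 0.46 at day 1 and -2.04 ± 0.62 at day 14, and EBP, a sterol isomerase, at -0.40 ± 0.10 and -0.62 ± 0.21. Both other solute carriers, SLC1A4 and SLC30A1, were called lower at day 14, and SLC30A1, a zinc exporter, was at -0.82 ± 0.088. SLC9A3R1 was not counted here, since it is a scaffold protein despite its symbol. Of 11 other genes of the estrogen-induced list, 6, 3, 7, 7 and 10 were called lower on the 5 days in turn, with medians of -0.64, -0.68, -0.73, -0.71 and -1.81. TFF1, TFF3, AREG, EGR3, MYB, OLFM1, NELL2 and GFRA1 among them, like ELOVL5 above, are names of genes set aside from set 5. The study formed that set from its fall on these same arrays, so nothing is read from their lower values. The 5 genes of the estrogen-induced list described here, SIAH2, SLC39A6, RBBP8, MAPT and CELSR2, had 1, 0, 0, 0 and 4 calls. Over all probes, 3.59%, 0.636%, 0.696%, 0.494% and 2.96% were called lower on these days. All the genes counted come from a list chosen for change, so nothing is read from either set of counts. CYP2J2, the only other P450 or HSD gene with a name, was higher at day 14 (1.15 ± 0.15).

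Among markers of cell types, the luminal genes MUC1 and CLDN4 were the only 2 of 12 with a named probe. MUC1 was at -0.69 ± 0.32 at day 1 and 1.02 ± 0.051 at day 14, and CLDN4 at 0.88 ± 0.31 and 0.49 ± 0.22. FN1, the only one of 11 fibroblast and matrix markers, was at -0.15 ± 0.17 at day 1 and -0.61 ± 0.22 at day 14. The hepatocyte markers were furthest from the pool at day 14. Of 6, ALB (albumin) and SERPINA1 (alpha-1-antitrypsin) had a named probe. Both are genes set aside from set 5, which the study formed from its fall on these same arrays, so nothing is read from their lower values. ALB was at -2.33 ± 1.69 at day 1 and -5.0 ± 0.53 at day 14, and SERPINA1 at -0.69 ± 0.24 and -1.66 ± 0.20, both called lower at day 14. MB (myoglobin), the only one of 5 muscle markers, was called higher at day 14 (0.72 ± 0.30). No marker of endothelium, leukocytes or adipocytes had a named probe. A part of cell composition in the lower values of day 14 was not tested.

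RefSeq promoter windows (GRCh38.p14, 250 bases before to 50 after the start of transcription) were at hand for 22 of the 36 gene symbols in the labels. Neither the full letters of the estrogen response element (GGTCANNNTGACC) nor 2 copies of its single arm (GGTCA on either strand) occurred in any of the 22. The full letters occurred in 0.057% of all 35116 windows and 2 arms in 9.28%. With so rare a match, finding no full letters in 22 windows says nothing about these genes. The study used another program, Dragon, and reported estrogen response elements in promoter regions of a similar proportion of genes in every cluster. The search for exact letters in short windows is not comparable with that. A single arm was in 6 of the 22 (27.3%), IL24, LAMA3, MAT1A, PPP1R3C, SLC39A6 and ZNF238, and at least one was in 37.4% of all windows. The 3 of these with the lowest day 14 means are shown to place the match in its context, a choice made after the values were seen. Each is the 250 bases before the start, 5′ to 3′ on the strand of the gene, with the arm in capitals. The windows are chr10:80289659-80289908 on the minus strand for MAT1A, chr1:206897193-206897442 on the plus strand for IL24 and chr10:91633072-91633321 on the minus strand for PPP1R3C.
MAT1A: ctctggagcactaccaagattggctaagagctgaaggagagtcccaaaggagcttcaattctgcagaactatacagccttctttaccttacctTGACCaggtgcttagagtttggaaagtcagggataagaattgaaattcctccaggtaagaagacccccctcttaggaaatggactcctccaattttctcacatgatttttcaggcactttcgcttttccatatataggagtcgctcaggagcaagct
IL24: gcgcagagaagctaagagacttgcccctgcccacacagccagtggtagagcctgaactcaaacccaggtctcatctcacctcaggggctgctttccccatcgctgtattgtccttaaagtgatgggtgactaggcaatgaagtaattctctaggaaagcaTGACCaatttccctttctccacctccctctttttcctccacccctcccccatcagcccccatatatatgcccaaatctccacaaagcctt
PPP1R3C: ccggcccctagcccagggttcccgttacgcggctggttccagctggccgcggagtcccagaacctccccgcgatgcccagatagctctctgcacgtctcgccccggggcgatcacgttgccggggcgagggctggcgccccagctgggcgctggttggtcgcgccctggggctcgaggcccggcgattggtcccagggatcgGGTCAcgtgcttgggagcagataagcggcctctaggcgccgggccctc
The arm ends 152 bases before the start in MAT1A, 85 bases in IL24 and 43 bases in PPP1R3C. A match describes these letters only.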

How the data were processed

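Total RNA of 16 treated ZR-75-1 xenografts was hybridized with the control pool to 32 cDNA arrays of 2 colors. The deposited intensity values, brightness and local background of each spot in each channel, were scanned by the authors and are neither corrected nor normalized, and they were the values used. The log2 ratios in the authors' value table were made with limma (version not given in the sources used here) by background correction, loess and quantile normalization, according to the methods. That table has 9928 probes, 9908 of them shared with the scanner files, and 665 missing values. Its columns have medians of -0.0083 to 0.011 and match log2 ratios on 11 of 32 arrays with r of at least 0.99, down to 0.225 on one array, so how the other columns were made stays unknown, and it served as an alternative. The files hold 0 columns of other samples.

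The analysis used limma 3.58.1 and statmod 1.5.0 in R 4.3.3. Spots marked 0 (1 to 393 per array, meaning not stated) were left out. Background was corrected with normexp (offset 50), followed by loess within and quantile normalization between arrays. The sign of swapped arrays was turned, and the arrays of a tumor were averaged. lmFit was run with 1 mean per day, the mouse as a random block (duplicateCorrelation, 0.0206), eBayes and Benjamini-Hochberg adjustment over 9912 probes. The test of a day is against 0 and thus against 1 pool, whose own spread it leaves out. The number of arrays limits the precision. The fit was tested on simulated data.

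Gene names and sets come from the study's list of 333 probes, the column of set numbers and names only. The columns of fold changes in that list were not used. All 33 labels are named, with single tumors for the 2 of each group with the lowest day 14 mean and for hemoglobin. The members, groups and gene lists were chosen with earlier results of these data known. Alternatives covered background correction, normalization, marks, dim and saturated spots, blocks, a dye term, the authors' table, the left-out array and leaving out each tumor. Promoter windows are RefSeq sequences.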

Additional observations from a re-analysis of the deposited data

Results flagged for a closer look

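In 5 of 98 groups of 4 tumors, one tumor lay apart from the rest by more than Dixon's 95% critical value, which chance passes in about 1 of 20 groups. In all 5 it was the lowest tumor. CLN8 at day 7 was at -2.79 in replicate 2 and between -1.1 and -0.76 in the other tumors. SLC39A6 at day 7 was at -0.36 in the same tumor and between -0.08 and -0.03 in the others, on a probe near the top of the scanner's range. Day 4 replicate 2 gave SLC1A1 at -1.61, against -0.86 to -0.8, and S100A10 at -0.66, against -0.29 to -0.24. DHCR7 at day 1 was at -1.04 in replicate 4 and between -0.42 and -0.33 in the others.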

How the results depend on the processing

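Few values changed sign under the alternatives, while the number of calls varied. Of 5298 values of single genes by day under the alternatives, 5289 kept their sign and 107 moved by more than the SD between tumors, and all 1060 values of day 14 were below 0. Many of these values could hardly move. Leaving out a tumor bears on the mean of its own day, and dropping the mouse block barely changed the means. The number of values that kept their sign is therefore no measure of stability. The median of the 39 probes stayed, on the 5 days in turn, from -0.36 to -0.29, -0.50 to -0.32, -0.36 to -0.22, -0.30 to -0.24 and -0.83 to -0.67 with all tumors kept. Leaving out 1 tumor at a time, it ranged from -0.40 to -0.34, -0.49 to -0.26, -0.36 to -0.27, -0.34 to -0.22 and -0.84 to -0.66. The counts of probes called lower then ranged from 3 to 14, 0 to 6, 2 to 9, 1 to 7 and 3 to 34 on the 5 days, against 11, 3, 7, 6 and 31. A lone tumor left at day 2 or 14 is assumed to vary like the others. With all tumors kept, day 14 stayed between 21 (replicate number as a block, 1.51% of all probes) and 38. The count of 38 came with a dye term (5.1%) and with the arrays of 1 day alone (3.09%).

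On days 1, 2, 4 and 7 the counts ranged from 0 to 23, 0 to 12, 0 to 16 and 0 to 14 with all tumors kept, and the cause was not tested. A fit on single arrays with a dye term called 22, 12, 16 and 14 probes on days 1, 2, 4 and 7 (6.65%, 2.01%, 1.18% and 1.36% of all probes), and fits on the arrays of 1 day alone, which had no mouse block, called 23, 0, 1 and 0 (7.05%, 0.0101%, 0.151% and 0.0303%). One mean per mouse gave 0, 3 and 2 calls on days 1, 4 and 7 (0.202%, 0.222% and 0.131%). The left-out array used as labelled gave 6, 1, 0 and 0 (2.3%, 0.484%, 0% and 0.0101%). Day 2 had 6 calls with plain background subtraction (1.06% of all probes) and 5 without background correction (0.817%). It had 5 without the dimmest 25% of probes (1.21% of those kept). A 1.5-fold change and an unadjusted p not above 0.05 gave 12 (1.61%) at day 2 and 3 (0.383%) at day 7. Day 4 had 4 calls with marked spots kept (0.444%). The authors' table gave 0 calls at day 7, as it did over all its probes (0%). The settings that follow were added after seeing the data. Leaving out spots under 3 times background gave 4 calls at day 4 (0.361%) and 2 at day 7 (0.233%). Leaving out spots over 50000 gave 29 at day 14 (2.9%). The authors' table without its column of lowest correlation gave 7 at day 7 (0.747%).

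Replicate numbers did not pair the tumors, since deviations of 24 same-numbered pairs of different days correlated with r between -0.173 and 0.182. With the replicate number as a block, 5, 1, 8, 1 and 21 probes were called, with medians of -0.33, -0.41, -0.36, -0.28 and -0.71. Of all probes, 1.47%, 0.0908%, 0.595%, 0.343% and 1.51% were called lower in that fit. A slide or scan batch was not run as a block, since the file headers used here give none.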
